A study of Homo sapiens with 16 samples.

Results

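In all, 31 genes of cholesterol and fatty acid synthesis were followed in 2 human epithelial lines with less YAP or with a mutant YAP. They are the rows of the gene count table with the listed symbols, and all 31 were found among the 26229 listed genes and among the 14673 that had enough reads to be tested. By role they are 7 genes of the mevalonate pathway, 10 of squalene and sterol synthesis, 5 of the SREBP system and sterol transport, 5 of fatty acid supply and synthesis, and 4 of fatty acid elongation and desaturation. The lines are A431, from an epidermoid carcinoma, and HaCaT, from keratinocytes that became immortal in culture, both kept in DMEM with 10% FCS. Each line gave 1 library after control siRNA (siCTRL), 3 after siRNA against YAP1 (siYAP), 1 with the empty expression vector (EV) and 3 with the YAP5SA vector, so 16 libraries in 8 groups. The siRNA cells carried no vector and were transfected again 24 hours after the first transfection, with RNA analysed 48 hours later. The vector cells carried no siRNA. YAP5SA is an activated mutant of YAP, a coactivator that works with TEAD factors. Neither line's labels name separate clones or cultures, and with a single library a control group has no spread of its own, so each test assumes that it varied like the triplicates. P values then measure only the spread between these libraries.

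Cells build cholesterol from acetyl-CoA through mevalonate, squalene and lanosterol, and build fatty acids from the same precursor through malonyl-CoA. Most of these enzymes are transcribed under the SREBP factors, which SCAP carries from the endoplasmic reticulum to the Golgi when sterols are low and which INSIG1 holds back when sterols are high. In the epidermis, cholesterol and fatty acids made by keratinocytes go into the barrier lipids between the outer cells.

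The libraries held between 18115624 and 46791673 assigned read pairs. In HaCaT cells the 4 siRNA libraries held 18115624 to 28729899 and the 4 vector libraries 34382933 to 39980642, so depth moved with the arm there, and its part in the results was not tested. YAP1 was at 94.2 CPM (counts per 1000000 assigned pairs, after TMM scaling) in A431 siCTRL and 5.04 to 6.99 in siYAP, and at 254.2 and 21.6 to 23.2 in HaCaT. With YAP5SA it was at 1494 to 3244 CPM against 124.2 in A431 EV, and at 7546 to 22240 against 422.7 in HaCaT EV. All 7 keratinocyte markers examined were above 1 CPM in every library of both lines, while 5 of 6 fibroblast markers in A431 and 4 of 6 in HaCaT stayed at or under 1 CPM throughout. The summed fibroblast markers ranged from 0.54 to 3.17 CPM in A431 and from 0.66 to 19.9 CPM in HaCaT, where DCN reached 14.2. Of the triplicates, those with YAP5SA were the least even. A431 YAP5SA replicate 1 had INSIG1 at 487.5 CPM, beside 195.0 and 274.5 in the other replicates and 467.5 in EV, and the lowest YAP1 of the 3. HaCaT YAP5SA replicate 2 had SREBF1 at 16.1 and SCD at 673.8 CPM, both the lowest of the 16 libraries, and the highest YAP1.

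Promoters of the members were read from RefSeq (GRCh38.p14) to show the letters upstream of genes that moved together, and 27 of the 31 members were found there. The motifs were looked for in the 250 bases before the start, on both strands. CCAAT, the box bound by NF-Y, was in 17 of the 27, or 63.0%, against 33.0% of 27305 promoters. GGGCGG, the GC box, was in 25 of 27, or 92.6%, against 42.3% of all. TCACNCCAC, close to a sterol regulatory element, was found before SREBF2 alone, 3.7% against 0.875%. Only this pattern was searched, so sterol regulatory elements with other letters were not counted. CACGTG was in 3 members, 11.1% against 6.49%, and GGAATG, the TEAD motif, was in 4, 14.8% against 11.9%. The 27305 promoters also cover genes not tested here, whereas all 31 members were tested. Shares among tested genes alone were not taken. HMGCS1, FDPS and STARD4 are shown because they were high together in the HaCaT vector libraries, and SREBF2 and FADS2 because they were low there. Each line is the strand of the gene, 5′ to 3′, in the build GRCh38.p14, and capitals mark CCAAT or its reverse complement and, in SREBF2, also TCACNCCAC. HMGCS1 lies at chr5:43313413-43313662 on the minus strand, FDPS at chr1:155308616-155308865 on the plus strand, STARD4 at chr5:111512536-111512785 on the minus strand, SREBF2 at chr22:41832855-41833104 on the plus strand and FADS2 at chr11:61815953-61816202 on the plus strand. FADS2 has none of the 5 motifs in these letters, but 1 start per gene was read and other starts were not searched. The FADS2 letters lie downstream of the FADS1 start read here, on the other strand (FADS1 letters at chr11:61817004-61817253, minus strand).
HMGCS1: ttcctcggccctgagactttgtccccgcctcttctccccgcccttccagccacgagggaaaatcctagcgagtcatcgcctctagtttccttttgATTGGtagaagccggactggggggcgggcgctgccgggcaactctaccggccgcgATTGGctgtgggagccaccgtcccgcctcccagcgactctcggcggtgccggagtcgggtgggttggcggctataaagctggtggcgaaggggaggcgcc
FDPS: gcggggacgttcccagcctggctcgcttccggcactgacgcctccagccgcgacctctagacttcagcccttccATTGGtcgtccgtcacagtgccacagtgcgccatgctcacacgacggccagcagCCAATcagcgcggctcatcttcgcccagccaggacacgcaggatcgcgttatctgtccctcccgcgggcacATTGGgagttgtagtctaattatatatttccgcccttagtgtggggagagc
STARD4: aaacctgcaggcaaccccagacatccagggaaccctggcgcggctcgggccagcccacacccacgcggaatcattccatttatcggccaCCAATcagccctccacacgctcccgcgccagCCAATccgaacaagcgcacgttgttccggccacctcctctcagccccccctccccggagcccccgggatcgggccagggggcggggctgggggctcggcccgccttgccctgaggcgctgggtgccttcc
SREBF2: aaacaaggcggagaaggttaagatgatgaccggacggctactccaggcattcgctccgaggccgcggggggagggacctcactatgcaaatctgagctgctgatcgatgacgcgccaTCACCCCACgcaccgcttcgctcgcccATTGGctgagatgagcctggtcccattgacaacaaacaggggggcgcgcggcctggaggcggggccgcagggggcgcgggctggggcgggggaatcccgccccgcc
FADS2: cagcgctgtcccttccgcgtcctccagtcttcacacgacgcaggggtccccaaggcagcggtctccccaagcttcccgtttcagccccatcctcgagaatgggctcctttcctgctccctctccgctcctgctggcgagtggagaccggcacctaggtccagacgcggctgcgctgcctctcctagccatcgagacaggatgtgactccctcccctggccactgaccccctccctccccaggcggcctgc

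**Figure D1:**
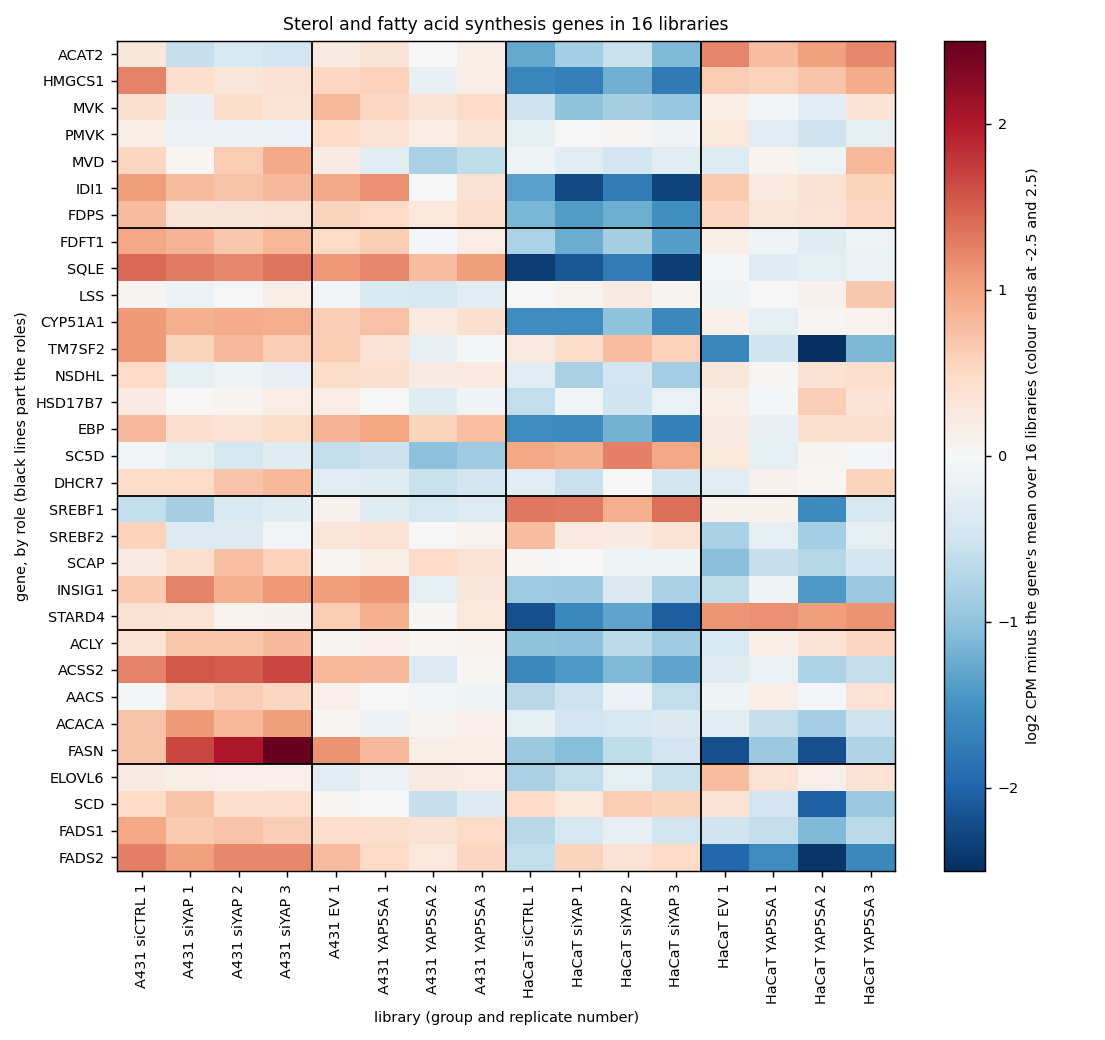
Level of each of the 31 genes (rows, by role) in each of the 16 libraries (columns), as log2 CPM minus the gene's mean over the 16 libraries. In the 4 HaCaT vector columns on the right HMGCS1, IDI1, FDPS, SQLE and STARD4 are redder than in the 4 HaCaT siRNA columns, while FADS2, SREBF1 and TM7SF2 are bluer. Of these 8 genes, FADS2 is the only one lower in all 4 A431 vector columns than in the A431 siRNA columns.

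Per length, as CPM per kilobase of the longest protein-coding transcript, SCD had the highest level of the 31 genes in every group, from 256.0 in HaCaT YAP5SA to 747.1 in A431 siYAP. SCD is the desaturase that makes oleate from stearate. STARD4, a cytosolic sterol carrier, was the lowest per kilobase in 5 of the 8 groups, and TM7SF2, a sterol reductase, in the other three. HMGCS1 was at 148.1 CPM per kilobase in A431 siCTRL and at 20.3 in HaCaT siCTRL, but at 90.5 and 98.0 in the EV libraries of the same lines. For this gene A431 was thus above HaCaT between the siCTRL libraries, while the EV libraries, 1 per line, stood close together.

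Few of the 31 genes passed the test between siYAP and siCTRL, as was so for all tested genes. In A431, 3 of 31 were called, 0 higher and 3 lower, beside 5.6% of all tested genes (1.81% higher and 3.78% lower). Called means an FDR under 0.05 by edgeR's quasi-likelihood test with Benjamini-Hochberg adjustment over all tested genes and a logCPM above 1. SREBF2, which encodes the SREBP that mainly drives sterol synthesis, was at 128.9 CPM in siCTRL and at 67.9, 67.7 and 82.2 in siYAP (log2 fold change -0.83 ± 0.21 SE, FDR = 0.0389). ACAT2, the thiolase that opens the pathway, was at 68.5 CPM in siCTRL and at 37.9, 43.6 and 40.3 in siYAP (-0.75 ± 0.20, FDR = 0.0441). NSDHL, which acts in C4 demethylation of sterols, was at 67.7 CPM in siCTRL and at 41.3, 44.0 and 41.7 in siYAP (-0.68 ± 0.18, FDR = 0.0433). For these 3 genes every siYAP library was under the control, but without any 1 of the siYAP libraries none of them was called, with an FDR between 0.0546 and 0.111. With siCTRL and EV pooled as 2 controls, 0 of 31 were called, beside 1.35% of all tested genes.

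FASN, the fatty acid synthase, went the other way in A431 without passing the test. It was at 263.5 CPM in siCTRL and at 515.2, 658.2 and 936.8 in siYAP (1.42 ± 0.50, FDR = 0.116). All 3 siYAP libraries were above the control, and they spread widely among themselves. HMGCS1, the synthase before the reductase step, was at 519.2 CPM in siCTRL and at 296.5, 273.0 and 287.5 in siYAP (-0.86 ± 0.25, FDR = 0.0614). It was lower in every siYAP library, and close to the EV level of 317.3 CPM. Over the 31 genes the median log2 fold change was -0.12, with 20 negative, beside 0.03 over all tested genes.

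In HaCaT siYAP, 1 of 31 was called, beside 5.67% of all tested genes. FADS2, the delta-6 desaturase of polyunsaturated fatty acids, rose from 17.8 CPM in siCTRL to 39.8, 34.7 and 37.7 in siYAP (1.07 ± 0.27, FDR = 0.0328). The siYAP libraries lay close together, yet without replicate 1 or without replicate 3 the FDR was 0.0761 or 0.0695. The call was also lost with HaCaT fitted alone. SREBF2 was at 146.5 CPM in siCTRL and at 102.9, 99.5 and 109.4 in siYAP (-0.49 ± 0.21, FDR = 0.211), lower in each library without passing the test. IDI1, the isopentenyl diphosphate isomerase, was at 85.4 CPM in siCTRL and at 45.5, 64.7 and 44.2 in siYAP (-0.73 ± 0.32, FDR = 0.211). With siCTRL and EV as 2 controls, 10 of 31 were called, while the share of all tested genes called rose to 20%.

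Over both lines, siYAP lowered 3 of 31 genes and raised 0, beside 13% of all tested genes called (7.68% lower and 5.3% higher). SREBF2 fell by 0.66 ± 0.15 on the log2 scale (SE, FDR = 0.0122) and NSDHL by 0.56 ± 0.13 (FDR = 0.0122). FDPS, the farnesyl diphosphate synthase, fell by 0.34 ± 0.10 (FDR = 0.042), and this call was lost without any 1 of 5 of the 6 siYAP libraries. All 6 siYAP libraries were under the control of their line for SREBF2, NSDHL and FDPS. Among the pathway lists, 3 of 11 genes of SREBP processing and turnover were lower and 2 higher, of which MBTPS2, the site-2 protease that frees SREBP in the Golgi, had -0.94 (FDR = 0.0048) and FAF2, a factor of ER-associated degradation, -0.92 (FDR = 0.000341). Of 19 other genes of the mevalonate and sterol branches 4 were lower and 1 higher, the largest change being in ICMT, the prenylcysteine methyltransferase (-0.86, FDR = 0.00179). LIPA, the lysosomal lipase that frees cholesterol from its esters, rose by 0.58 (FDR = 0.00573), 1 of 2 genes that were higher among 14 tested for sterol uptake, storage and efflux, with 0 lower. Of 24 tested genes of other fatty acid and glycerolipid synthesis 3 were higher and 2 lower.

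**Figure D2:**
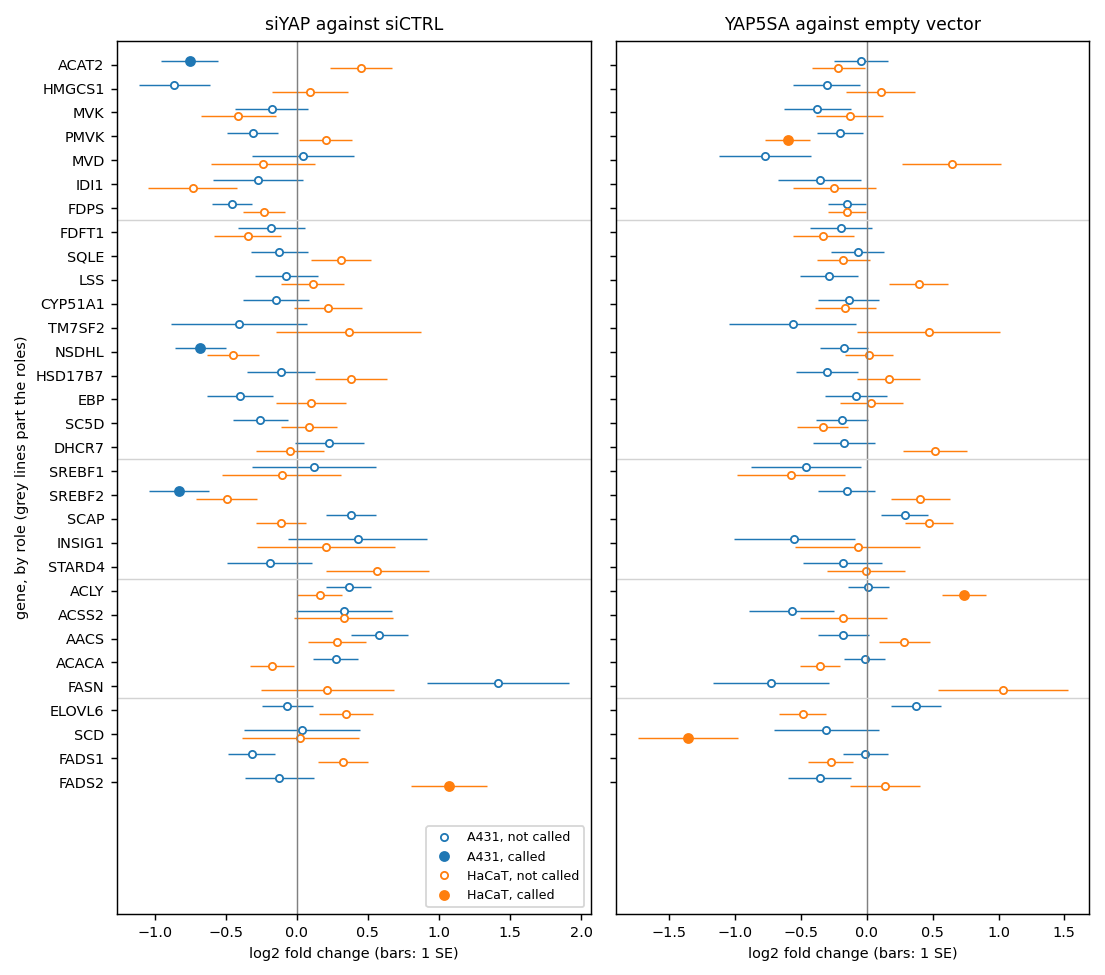
Log2 fold change (horizontal axis, bars 1 SE) of each gene in siYAP against siCTRL (left) and in YAP5SA against EV (right), A431 in blue and HaCaT in orange, each from 3 treated libraries and 1 control, with filled points for called genes. Filled points are few: 3 in A431 and 1 in HaCaT on the left, 0 and 3 on the right.

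In A431, 0 of the 31 genes were called in YAP5SA against EV, beside 0% of all tested genes. Only MVD, the mevalonate diphosphate decarboxylase, had an unadjusted p under 0.05, beside 828 of the 14673 tested genes. DESeq2 also called 0, beside 0.0204% of all tested genes. MVD was at 29.4 CPM in EV and at 20.7, 14.5 and 16.3 with YAP5SA (-0.77 ± 0.35, FDR = 0.803). Of the 31 genes 28 had a negative log2 fold change, with a median of -0.19 beside 0.02 over all tested genes. YAP1 itself, higher in all 3 libraries, was not called here, so a missing call says little about this comparison.

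In HaCaT, YAP5SA changed 3 of 31 genes, 1 higher and 2 lower, beside 13.6% of all tested genes. ACLY, which makes acetyl-CoA from citrate, rose from 208.6 CPM in EV to 304.8, 347.3 and 391.1 (0.74 ± 0.16, FDR = 0.0142). SCD fell from 3518 CPM in EV to 1983, 673.8 and 1461 (log2 fold change -1.36 ± 0.38, FDR = 0.0337). PMVK, the phosphomevalonate kinase, fell from 15.02 CPM in EV to 10.4, 8.75 and 10.6 (-0.60 ± 0.17, FDR = 0.0359). Each gene had all 3 YAP5SA libraries on the same side of EV. Without replicate 2, the library that stood apart in SCD and SREBF1, 4 genes were called: ACLY (0.74), SCD (-1.03), FASN (1.36) and SREBF2 (0.58). Of all tested genes 14.9% were called without replicate 2. Without replicate 3, ACLY alone was called, beside 7.79% of all tested genes. With HaCaT fitted alone 0 were called, beside 4.51%. FASN was at 35.0 CPM in EV and at 84.8, 35.1 and 95.2 with YAP5SA, so replicate 2 sat at the EV level and the others above it.

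Over both lines 0 of 31 genes were called in YAP5SA against EV by edgeR, beside 2.04% of all tested genes. Beside 3134 of the 14673 tested genes, 4 of the 31 had an unadjusted p under 0.05 (PMVK, SCAP, ACLY and SCD). DESeq2 called 3 of these, PMVK, ACLY and SCD, beside 7.24% of all tested genes, and the likelihood ratio test of edgeR called ACLY and SCD, beside 6.61%. SCD had a log2 fold change of -0.83 ± 0.28 (FDR = 0.116) and ACLY of 0.37 ± 0.11 (FDR = 0.0937). Of the pathway genes over both lines, ELOVL7, a fatty acid elongase, was the only 1 called (1.69, FDR = 0.0294). In HaCaT YAP5SA against EV it was at 3.29 (FDR = 0.00703), 1 of 3 higher and 1 lower among 24 tested genes of other fatty acid and glycerolipid synthesis. In that HaCaT comparison 13.6% of all tested genes were called, 6.99% higher and 6.64% lower. There 1 of 11 genes of SREBP processing and turnover was higher and 1 lower. Of 19 other mevalonate and sterol branch genes 0 were higher and 1 lower, and of 14 genes for sterol uptake, storage and efflux 2 were higher and 2 lower. MYLIP, the ligase that degrades lipoprotein receptors, was at -1.35 (FDR = 0.0163), and DGAT1, which makes triacylglycerol, at 1.41 (FDR = 0.0101).

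The effects of both treatments were also compared between the lines. For siYAP, 0 of 31 genes differed by edgeR (0.17% of all tested genes did), with 4 at an unadjusted p under 0.05 and 2 called by DESeq2. The largest of these differences were in ACAT2, at 1.2 ± 0.30 (HaCaT minus A431, FDR = 0.142), and FADS2, at 1.19 ± 0.35 (FDR = 0.204). For YAP5SA, 0 of 31 differed by edgeR (0.0886% of all tested genes did), with 5 at an unadjusted p under 0.05 and 2 called by DESeq2. FASN, at 1.76 ± 0.66 (FDR = 0.149), had the largest difference. Of the 14673 tested genes, 1690 had an unadjusted p under 0.05 for siYAP and 3280 for YAP5SA. By DESeq2 and the likelihood ratio test, 1.91% and 1.43% of all tested genes differed for siYAP, and 6.32% and 5.3% for YAP5SA, and the likelihood ratio test called 1 of the 31 in each.

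**Figure D3:**
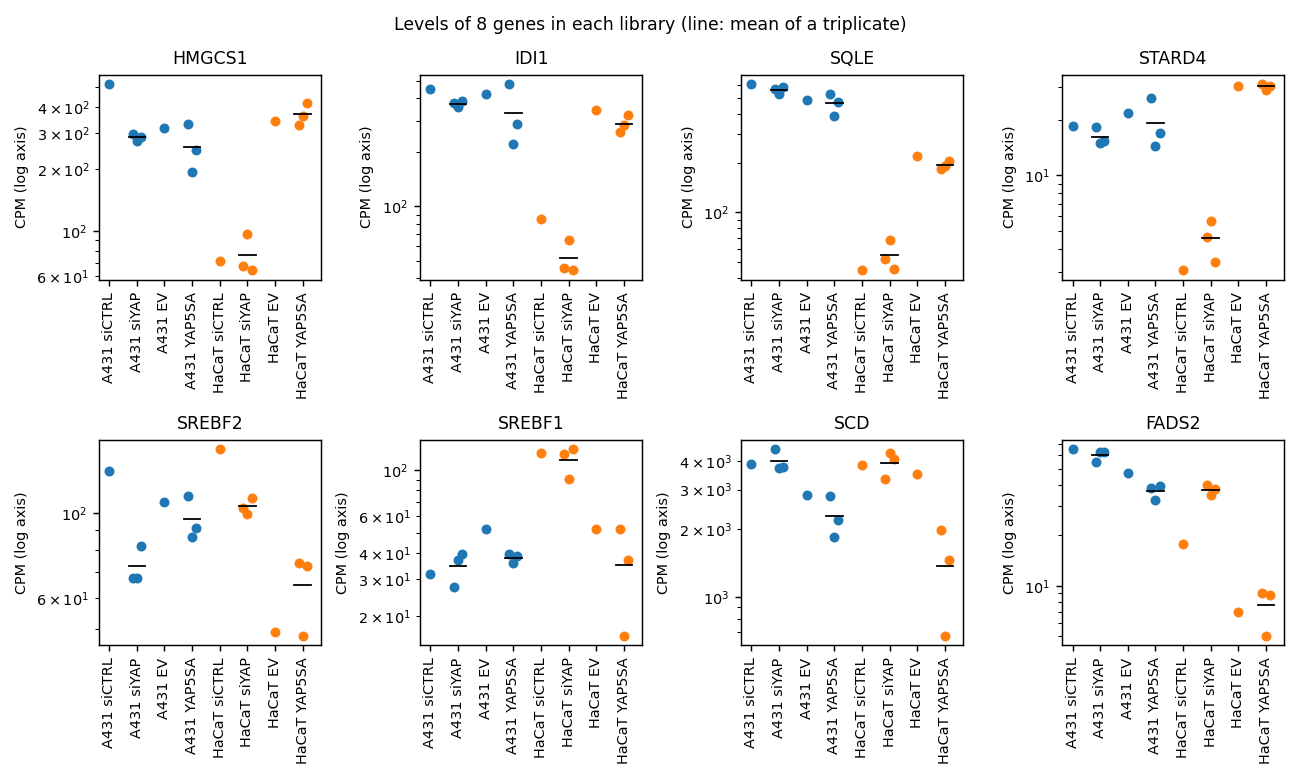
CPM (vertical axis, log scale, its range set for each gene) of 8 genes in each library, by group, A431 in blue and HaCaT in orange, with a line at the mean of each triplicate. STARD4 sits between 3.06 and 5.68 CPM in the HaCaT siRNA libraries and between 29.1 and 31.3 in the HaCaT vector libraries, whereas the A431 arms overlap.

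Within HaCaT, the vector and the siRNA libraries differed in most of the 31 genes. YAP5SA against siYAP called 27 of 31 genes in HaCaT, 18 higher and 9 lower, or 87.1% beside 60% of all tested genes (31.5% higher and 28.5% lower). EV against siCTRL, in which YAP was not targeted and YAP1 was at 422.7 and 254.2 CPM, called 17 of 31 in HaCaT, 12 higher and 5 lower, or 54.8% beside 39.5%. This comparison, with 1 library on each side, was added after the data had been seen. Of the 31 genes 16 had all 4 HaCaT vector libraries above all 4 siRNA libraries, beside 26.7% of tested genes, and 6 had them all below, beside 28.4%. With YAP5SA taken relative to EV and siYAP relative to siCTRL, 0 of 31 were called between YAP5SA and siYAP in either line by edgeR, beside 1.53% of all tested genes in A431 and 9% in HaCaT. In this design the arm (vector or siRNA), its culture and its depth cannot be told apart in the controls, nor from YAP in the treated libraries.

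Of the 7 mevalonate genes, all 7 were called in HaCaT YAP5SA against siYAP, 6 higher and 1 lower, beside 60% of all tested genes. In HaCaT EV against siCTRL 4 of the 7 were called, 4 higher and 0 lower, beside 39.5%. HMGCS1 was at 71.2 CPM in siCTRL and at 67.6, 96.1 and 64.3 in siYAP, against 343.6 in EV and 327.4, 363.2 and 417.4 with YAP5SA. The arms did not overlap, and the log2 fold changes were 2.28 ± 0.19 for YAP5SA against siYAP (FDR = 3.37e-07) and 2.27 ± 0.34 for EV against siCTRL (FDR = 0.000216). IDI1 was at 85.4 CPM in siCTRL and 45.5, 64.7 and 44.2 in siYAP, against 342.8 in EV and 260.1, 285.0 and 321.8 with YAP5SA. Its log2 fold changes were 2.49 ± 0.24 (FDR = 1.12e-06) and 2.01 ± 0.41 (FDR = 0.00187). FDPS was at 69.7 to 91.1 CPM in the siRNA libraries and at 247.8 to 293.6 in the vector libraries. ACAT2 was at 23.4 to 38.5 CPM in the siRNA libraries and at 96.8 to 132.2 in the vector libraries. MVD overlapped between the arms, at 18.2 to 23.6 CPM in the siRNA libraries and at 20.3 in EV and 23.1 to 45.2 with YAP5SA. PMVK was the 1 called lower, at 10.8 to 12.7 CPM in the siRNA libraries and at 15.02 in EV but 8.75 to 10.6 with YAP5SA. Against siCTRL, the median of the 7 genes was between -0.18 and -0.07 on the log2 scale in the siYAP libraries and between 1.44 and 1.69 in the 4 vector libraries, beside -0.04 to 0.02 for all tested genes.

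Of the 10 genes of squalene and sterol synthesis, 9 were called in HaCaT YAP5SA against siYAP, 7 higher and 2 lower. The share of all tested genes was 60%. In HaCaT EV against siCTRL 6 of the 10 were called, 4 higher and 2 lower, beside 39.5%. SQLE, the squalene epoxidase, was at 44.3 CPM in siCTRL and at 52.3, 67.9 and 44.8 in siYAP, against 219.6 in EV and 184.5, 192.9 and 204.8 with YAP5SA (1.82 ± 0.15, FDR = 2.45e-07). CYP51A1, the lanosterol demethylase, was at 108.6 to 165.2 CPM in the siRNA libraries and at 278.0 to 359.8 in the vector libraries. EBP, the sterol isomerase, was at 28.7 to 41.1 and at 82.1 to 123.4 CPM. In these 3 genes the lowest vector library stood above the highest siRNA library. SC5D, the sterol desaturase late in the pathway, ran the other way, at 199.7 to 258.6 CPM in the siRNA libraries and at 91.4 to 130.7 in the vector libraries (-1.11 ± 0.14, FDR = 1.21e-05). TM7SF2 was at 6.93 to 9.96 CPM in the siRNA libraries and at 0.98 to 4.12 in the vector libraries (-1.78 ± 0.36, FDR = 0.000688). LSS, the lanosterol synthase, was not called, at 40.3 to 46.6 CPM in the siRNA libraries and 37.2 to 63.8 in the vector libraries.

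Among the 5 genes of the SREBP system and sterol transport the directions parted. STARD4 was at 3.06 CPM in siCTRL and at 4.61, 5.68 and 3.40 in siYAP, against 30.4 in EV and 31.3, 29.1 and 30.6 with YAP5SA. Its log2 fold changes, the highest of the 31 genes in both comparisons, were 2.74 ± 0.23 for YAP5SA against siYAP (FDR = 3.11e-07) and 3.31 ± 0.42 for EV against siCTRL (FDR = 7.54e-05). SREBF2 was at 146.5 CPM in siCTRL and 99.5 to 109.4 in siYAP, against 49.0 in EV and 74.0, 48.0 and 72.8 with YAP5SA (-0.68 ± 0.16, FDR = 0.00166). SREBF1, which encodes the SREBP more tied to fatty acid synthesis, was at 120.8 CPM in siCTRL and 91.3 to 126.3 in siYAP, against 52.3 in EV and 52.3, 16.1 and 37.0 with YAP5SA (-1.68 ± 0.31, FDR = 0.000296). SCAP was at 25.0 to 28.0 CPM in the siRNA libraries and at 13.2 to 19.6 in the vector libraries (-0.51 ± 0.12, FDR = 0.0026). The transcripts of both SREBPs and of SCAP were thus lower in every vector library in which HMGCS1, IDI1, SQLE and STARD4 were higher. INSIG1 overlapped between the arms, at 120.2 to 176.8 CPM and at 83.5 to 214.2, and was not called.

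The fatty acid genes were mixed. ACLY was at 133.7 to 171.2 CPM in the HaCaT siRNA libraries, at 208.6 in EV and at 304.8 to 391.1 with YAP5SA (1.21 ± 0.11, FDR = 8.16e-07). ACSS2, which makes acetyl-CoA from acetate, was at 36.4 to 51.8 and at 65.2 to 98.7 CPM (0.79 ± 0.24, FDR = 0.01). ELOVL6, the elongase of saturated fatty acids, was at 24.5 to 36.5 and at 46.8 to 73.7 CPM (0.75 ± 0.13, FDR = 0.000182). These 3 genes had no overlap between the arms. FADS2 was at 17.8 CPM in siCTRL and 34.7 to 39.8 in siYAP, against 6.97 in EV and 9.07, 5.05 and 8.85 with YAP5SA, the largest fall of the 31 genes (-2.29 ± 0.19, FDR = 2.24e-07). SCD had EV at 3518 CPM, within the siRNA range of 3339 to 4344, and only the YAP5SA libraries below it. FASN and ACACA, the synthase and the carboxylase before it, were not called.

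In HaCaT YAP5SA against siYAP, pathway genes outside the list were called about as often as all tested genes (60%) in 3 of the 4 lists and in 9 of 11 genes in the other. Of 11 genes of SREBP processing and turnover 6 were higher and 3 lower, with MBTPS2 at 1.80 (FDR = 2.23e-06). Of 19 other mevalonate and sterol branch genes 10 were higher and 2 lower, among them MSMO1, the sterol C4 oxidase that works with NSDHL, at 1.61 (FDR = 4.54e-05). Of 14 tested genes for sterol uptake, storage and efflux 3 were higher and 5 lower, with MYLIP at -2.37 (FDR = 1.99e-06), SCARB1, a receptor for HDL, at 2.11 (FDR = 1.03e-06) and SOAT1, which esterifies cholesterol, at 1.94 (FDR = 8.81e-07). Of 24 tested genes of other fatty acid and glycerolipid synthesis 10 were higher and 5 lower, led by ACSL4, an acyl-CoA synthetase for arachidonate, at 2.06 (FDR = 4.97e-08).

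**Figure D4:**
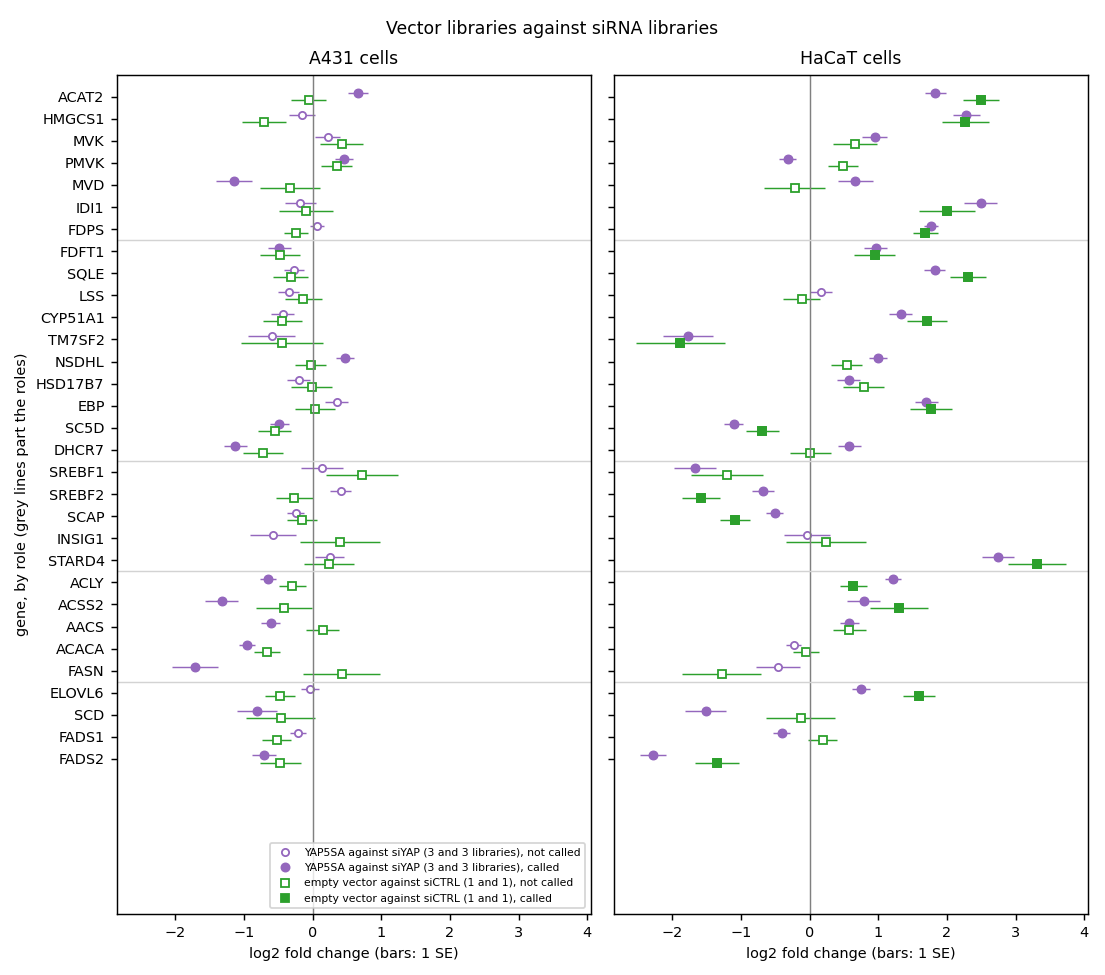
Log2 fold change (horizontal axis, bars 1 SE) of each gene between vector and siRNA libraries in A431 (left) and HaCaT (right), with circles for YAP5SA against siYAP and squares for EV against siCTRL, filled where called. In HaCaT circles and squares lie on the same side of 0 for most genes, from 3.31 for STARD4 to -2.29 for FADS2. In A431 no square is filled.

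In A431 most of the 31 genes were lower in the vector groups than in the siRNA groups. In EV against siCTRL, with 1 library on each side, 23 of the 31 had a negative log2 fold change. The median was -0.27, beside 0 over all tested genes. In YAP5SA against siYAP 22 of the 31 had a negative log2 fold change. With a single library on each side, a missing call between the controls says little. EV against siCTRL called 0 of 31 genes by edgeR, beside 1.17% of all tested genes, with 5 at an unadjusted p under 0.05 and 1 called by DESeq2. Of the 14673 tested genes 2417 had such a p, and DESeq2 called 5.02%. YAP5SA against siYAP called 14 of 31 genes, 3 higher and 11 lower, or 45.2% beside 34.6% (20% higher and 14.6% lower). All 5 genes of fatty acid supply and synthesis were lower with YAP5SA. FASN was at 515.2, 658.2 and 936.8 CPM in siYAP and at 283.7, 177.5 and 180.4 with YAP5SA (-1.72 ± 0.33, FDR = 0.00151), with siCTRL at 263.5 and EV at 353.5. ACSS2 was at 316.7 to 351.7 CPM in siYAP and at 195.4, 87.5 and 113.5 with YAP5SA (-1.32 ± 0.24, FDR = 0.000964). ACACA was at 317.2 to 375.1 and at 162.2 to 195.9 CPM (-0.96 ± 0.11, FDR = 4.34e-05), but also at 184.5 in EV and 293.2 in siCTRL. ACAT2 (0.65 ± 0.15), NSDHL (0.47 ± 0.13) and PMVK (0.46 ± 0.13) were the 3 that were higher. Of the 5 genes of the SREBP system and sterol transport 0 were called. PMVK alone had all 4 A431 vector libraries above all 4 siRNA libraries, beside 15.2% of tested genes, and 10 genes had them all below, beside 13.9%. Without replicate 1 of YAP5SA, the library nearest to EV in INSIG1, 17 genes were called, beside 37.6% of all tested genes.

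The step from siYAP to YAP5SA libraries, with 3 libraries in each group, was tested for a difference between the lines. Of 31 genes 25 differed, 20 above 0 (HaCaT minus A431) and 5 below, beside 40.2% of all tested genes. IDI1 (2.67 ± 0.33), STARD4 (2.5 ± 0.31) and HMGCS1 (2.44 ± 0.27) led, and SREBF1 (-1.81 ± 0.43) and FADS2 (-1.58 ± 0.25) were lowest. The same contrast for EV against siCTRL sets 4 single libraries against each other, so its SEs rest wholly on the spread of the treated triplicates, and it was added after the data had been seen. Under that assumption 14 of 31 genes passed, 12 above 0 and 2 below, beside 22% of all tested genes. STARD4 (3.07 ± 0.56), HMGCS1 (2.98 ± 0.46) and SQLE (2.63 ± 0.36) had the largest values, and SREBF2 (-1.31 ± 0.38) and SCAP (-0.94 ± 0.31) were the 2 below 0. Over both lines EV against siCTRL called 13 of 31 genes, 9 higher and 4 lower, beside 29% of all tested genes, and this mean stands for neither line.

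HaCaT and A431 were also compared over the 12 treated libraries. Of 31 genes 25 were called, 4 higher and 21 lower in HaCaT, or 80.6% beside 60.9% of all tested genes (27.3% higher and 33.6% lower). The median log2 fold change was -0.65, beside -0.04 over all tested genes. SQLE was at 388.1 to 607.4 CPM over the 8 A431 libraries and at 44.3 to 219.6 over the 8 HaCaT libraries (-2.30 ± 0.11, FDR = 6.25e-10). FASN was at 177.5 to 936.8 and at 35.0 to 115.4 CPM (-2.20 ± 0.24, FDR = 2.25e-06). FADS1, the delta-5 desaturase, was at 278.2 to 416.8 and at 99.5 to 183.2 CPM (-1.12 ± 0.09, FDR = 7.91e-08). With CYP51A1, SCAP and ACACA these were the 6 genes with every HaCaT library below every A431 library, beside 12.2% of tested genes, and 0 genes had every HaCaT library above, beside 10.3%. The 4 called higher in HaCaT were SC5D (1.06 ± 0.10), SREBF1 (0.79 ± 0.21), LSS (0.38 ± 0.11) and ACAT2 (0.24 ± 0.10).

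The size of the line difference, and for some genes its direction, depended on the arm. HaCaT was above A431 in 5 of the 31 genes between the siYAP means and in 12 between the YAP5SA means. HMGCS1 was at 0.266 of its A431 level in HaCaT siYAP and at 1.44 in HaCaT YAP5SA, and STARD4 at 0.283 and 1.58. SREBF1, called higher over both arms, was 3.23-fold higher in HaCaT siYAP and at 0.922 of its A431 level in HaCaT YAP5SA. SQLE was 13.7-fold higher in A431 than in HaCaT between the siCTRL libraries and 2.21-fold higher between the EV libraries. HMGCS1 was 7.29-fold higher in A431 between the siCTRL libraries, whereas the EV libraries were at 317.3 CPM in A431 and 343.6 in HaCaT. SREBF1 was 3.79-fold higher in HaCaT between the siCTRL libraries, and at 52.4 and 52.3 CPM in the EV libraries of A431 and HaCaT. In the control libraries, which this comparison did not use, 23 of the 25 called genes had the same direction between the siCTRL libraries, 92.0% beside 90.8% of all called genes, and 21 of 25 between the EV libraries, 84.0% beside 82.4%.

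**Figure D5:**
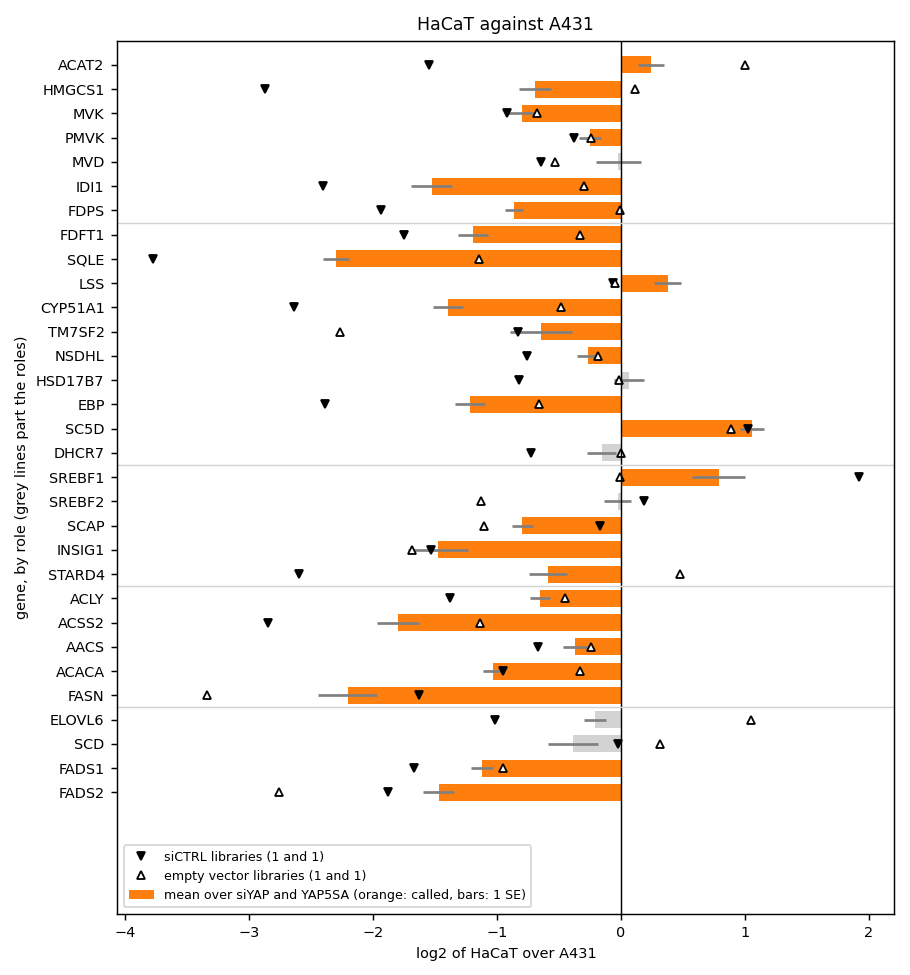
HaCaT over A431 on the log2 scale (horizontal axis) for each gene. Bars are the mean over the 12 treated libraries with 1 SE, orange where called, and triangles are the ratios of the single siCTRL and EV libraries. For SQLE, HMGCS1 and IDI1 the filled siCTRL triangle lies to the left of the end of the bar. The open EV triangle lies to the right of that end.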

How the data were processed

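Total RNA was sequenced with paired reads in 16 libraries of 2 cell lines. The authors deposited 1 table of RSEM estimated counts per gene (expected counts, not normalised), made after read trimming and mapping to RefSeq gene models with bowtie2. The submitters' processing notes name RSEM 1.2.11 and hg19, and the paper names another RSEM version. RSEM divides reads that map to several genes, and 10 of the 31 members had counts that were not whole, which are less certain for genes with near copies.

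After rounding to whole numbers the counts were tested with edgeR 4.0.16 in R 4.3.3, with DESeq2 1.42.0 as an alternative, and summarised in Python 3.11.15. Genes with a mean above 10 counts were kept, 14673 of 26229. One model with 8 groups, 8 residual degrees of freedom, TMM factors (0.9137 to 1.074) and a prior count of 0.125 gave the quasi-likelihood tests. The SE is the log2 fold change divided by the root of F. CPM values use TMM library sizes. The precision is set by the number of libraries and by depth, and the lowest member count was 34 in a library. Replicates differed beyond sampling noise in every pair (chi-square per degree of freedom at least 6.81). The scripts were tested on simulated counts.

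Groups were taken from the sample labels. The members and lists were chosen with earlier results of these data known. The genes named are the 31 members, the called genes with the largest change in 4 hand-written pathway lists (at most 3 per list and comparison) and YAP1 as a check of the labels. Replicate numbers were checked for pairing: every same-numbered pair correlated above 0.1 between the YAP5SA groups of the lines alone (given with the alternatives), so no block was used in the main model. EV against siCTRL in each line, the line differences of the arms and the counts without overlap were added after the data were seen. Alternatives were RLE size factors, DESeq2, other count filters, the likelihood ratio test, FDR alone, log2 changes of 1 or more in size, lines fitted singly, 2 controls, own controls, a replicate block and each treated library left out. Lengths came from GENCODE v29 and promoters from RefSeq.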

Additional observations from a re-analysis of the deposited data

Results flagged for a closer look

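The change from the siCTRL to the EV library, and from siYAP to YAP5SA libraries, was tested for a difference between the lines in 1 interaction contrast each, and the genes called are given here as HaCaT minus A431 on the log2 scale (edgeR's quasi-likelihood test, FDR under 0.05). No explanation of these differences was tested, and no outlier test was run, since groups held 3 libraries or fewer.

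For EV against siCTRL, each of the 4 groups is 1 library, so the test rests wholly on the spread of the treated triplicates, and the contrast was added after the data were seen. Under that assumption 14 of the 31 genes passed, beside 22% of all tested genes. In the mevalonate pathway they were HMGCS1 (2.98), ACAT2 (2.55), IDI1 (2.1) and FDPS (1.93). In squalene and sterol synthesis they were SQLE (2.63), CYP51A1 (2.15), EBP (1.73) and FDFT1 (1.42). In the SREBP system and sterol transport STARD4 (3.07) was above 0, while SREBF2 (-1.31) and SCAP (-0.94) were below it. Among fatty acid genes they were ELOVL6 (2.07), ACSS2 (1.72) and ACLY (0.93).

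For YAP5SA against siYAP, with 3 libraries in each of the 4 groups, 25 of the 31 genes differed, beside 40.2% of all tested genes. Of the mevalonate genes IDI1 (2.67), HMGCS1 (2.44), MVD (1.81), FDPS (1.7), ACAT2 (1.18) and MVK (0.73) were above 0 and PMVK (-0.78) below it. Of the sterol genes SQLE (2.09), CYP51A1 (1.76), DHCR7 (1.71), FDFT1 (1.45), EBP (1.35), HSD17B7 (0.77) and NSDHL (0.53) were above 0 and SC5D (-0.62) below it. STARD4 (2.5) was above 0, while SREBF1 (-1.81) and SREBF2 (-1.08) were below it. Of the fatty acid genes ACSS2 (2.11), ACLY (1.86), FASN (1.26), AACS (1.19), ELOVL6 (0.79) and ACACA (0.73) were above 0 and FADS2 (-1.58) below it.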

How the results depend on the processing

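RLE size factors, both count filters and FDR alone left every count of called members within 1.5 times its value. Each control group is a single library with no spread of its own, and every member had at least 34 counts in every library. Causes of the changes below were not tested.

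DESeq2 called 5 members (3 by edgeR's quasi-likelihood test) in A431 siYAP against siCTRL, 3 (0) in YAP5SA against EV over both lines, 2 (0) in each line difference of the siYAP and YAP5SA effects and 1 (0) in A431 EV against siCTRL. The likelihood ratio test called 2, 1, 1 and 1 in the last 4 of these. Of all tested genes DESeq2 called 9.52%, 7.24%, 1.91%, 6.32% and 5.02%, in the same order. The likelihood ratio test called 6.61%, 1.43%, 5.3% and 3.91% of all tested genes in the last 4. A log2 fold change of at least 1 left 0 in A431 siYAP, 1 in HaCaT YAP5SA against EV, 0 in siYAP over both lines, 12 in HaCaT against A431, 4 and 15 in YAP5SA against siYAP in A431 and HaCaT, and 2 in EV against siCTRL over both lines. Of all tested genes that limit left 2.07%, 5.14%, 2.21%, 21.3%, 8.76%, 30.6% and 10.7%, in the same order. With HaCaT fitted alone 0 were called for siYAP and 0 for YAP5SA against EV, beside 2.41% and 4.51% of all tested genes. With 2 controls there were 0 in A431 siYAP, 10 in HaCaT siYAP, 8 in siYAP over both lines and 2 in YAP5SA over both lines. The shares of all tested genes there were 1.35%, 20%, 20% and 5.22%. In HaCaT siYAP with 2 controls, 4 called members turned direction: HMGCS1 (-1.45), SQLE (-1.27), EBP (-1.04) and STARD4 (-1.89). The direction also turned for 11 members that were called in neither setting.

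With each arm set against its own control, YAP5SA against siYAP called 0 members in A431 and 0 in HaCaT. The shares of all tested genes were 1.53% and 9%. Of the members called in the main model, the direction turned for SC5D (0.0685) in A431. In HaCaT it turned for ACAT2 (-0.67), SQLE (-0.49), CYP51A1 (-0.38), TM7SF2 (0.11), HSD17B7 (-0.22), EBP (-0.0649), SREBF2 (0.90), SCAP (0.58), STARD4 (-0.57), ACSS2 (-0.51) and ELOVL6 (-0.84). The direction also turned for 7 members in A431 and 1 in HaCaT that were called in neither setting.

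Leaving out each treated library in turn gave 0 to 0 called members in A431 siYAP, 0 to 1 in HaCaT siYAP, 1 to 4 in HaCaT YAP5SA, 2 to 3 in siYAP over both lines, 0 to 2 in YAP5SA over both lines, 0 to 1 in the line difference of the YAP5SA effect, 21 to 26 in HaCaT against A431, 10 to 17 and 25 to 27 in YAP5SA against siYAP in A431 and HaCaT, and 21 to 27 in its line difference. For all tested genes the shares called, in the same order, were 2.27% to 3.7%, 3.55% to 4.8%, 7.79% to 19.8%, 8.85% to 11% and 0.327% to 9.33%. For the later comparisons they were 0.0068% to 5.94%, 58.1% to 61.6%, 24.7% to 37.6%, 55.5% to 60.1% and 35.4% to 42.7%. Over both lines, YAP5SA against EV called ACSS2 without A431 YAP5SA replicate 1, and ACLY and SCD without HaCaT YAP5SA replicate 1.

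With a replicate block in the 12 treated libraries, 24 members were called in HaCaT against A431 (24 without the block), 15 in A431 YAP5SA against siYAP (14) and 26 in HaCaT (27). The shares of all tested genes were 61.2% (60.5% without the block), 35.4% (34.3%) and 59.9% (59.7%). Same-numbered libraries of different groups correlated between -0.074 and 0.406, with 6 of 18 above 0.1 and 8 of 18 correlating best with their own number. The 3 same-numbered pairs of A431 YAP5SA with HaCaT YAP5SA were all above 0.1 (0.406, 0.162 and 0.175), although A431 replicate 2 correlated better with HaCaT replicate 3 (0.35). Between the other groups not every such pair was above 0.1.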
